A study of Homo sapiens with 9 samples.

Results

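The alpha- and beta-globin gene clusters were examined for peaks of the long non-coding RNA SRA (steroid receptor RNA activator) and of LacZ control probes in K562 cells. The clusters were taken by position alone, as 200 kb of chromosome 16 from 100000 to 300000 for the alpha cluster with its upstream enhancers and 180 kb of chromosome 11 from 5190000 to 5370000 for the beta cluster with its locus control region. All coordinates of peaks and windows are in hg19 and counted from 1. These windows held 5 of the 8658 distinct SRA peak positions of the genome and 4 of the 5502 distinct LacZ peak positions. The 10 globin genes are HBZ, HBM, HBA2, HBA1, and HBQ1 in the alpha cluster and HBE1, HBG2, HBG1, HBD, and HBB in the beta cluster, and all 10 were found in the RefSeq gene table.

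In the study, ChIRP (chromatin isolation by RNA purification) was carried out in K562, an established human erythroleukemia cell line, and the groups are labelled as differing only in the probes. Crosslinked chromatin was pulled down with biotinylated probes against SRA in 3 samples and with probes against LacZ, a bacterial transcript that human cells lack, in 3 samples. Input chromatin was sequenced in 3 further samples, not analysed here. Each pull-down sample has 1 list of peaks with a position and a score given by the peak caller, and read depth is unknown. There were 4982, 4946, and 5187 peaks in SRA lists 1, 2, and 3, compared with 2676, 2617, and 290 in LacZ lists 1, 2, and 3. Wherever peaks of different SRA lists overlapped, their start and end were identical. There were 0 exceptions among the 2739 positions in 2 lists and the 1859 positions in all 3 lists. How the lists came to share these limits is not given in the sources used here. The SRA lists were therefore also counted as 1 sample, and the spread between them was not taken as a replicate error.

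Hemoglobin is built from alpha-like and beta-like globin chains, whose genes lie in separate clusters and are switched on in turn during development. In the alpha cluster HBZ is the embryonic gene, HBA2 and HBA1 are the fetal and adult genes, and HBM and HBQ1 are minor members. In the beta cluster HBE1 is embryonic, HBG2 and HBG1 are fetal, HBD is a weakly expressed adult gene, and HBB is the main adult gene. Transcription depends on distant enhancers, which lie upstream of HBZ within the neighbouring gene NPRL3 for the alpha genes and in the locus control region upstream of HBE1 for the beta genes. K562 cells express mainly embryonic and fetal globins.

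RefSeq (GRCh38.p14) places the alpha genes along the chromosome in the order HBZ, HBM, HBA2, HBA1, and HBQ1, between NPRL3 and LUC7L. The beta genes follow each other as HBB, HBD, HBG1, HBG2, and HBE1, between the olfactory receptor genes OR51V1 and OR51B4. HBA2 and HBA1, like HBG2 and HBG1, are near-identical copies, so that reads from their shared stretches cannot be placed at 1 copy. How such reads were treated is not given in the sources used here. Distances from the peaks to the starts of the globin genes were not analysed here, since gene positions in hg19 were not used.

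Promoter sequences were matched for 2 of the 10 genes, HBM of the alpha cluster and HBD of the beta cluster. They are shown, as the 250 bases before each start from RefSeq (GRCh38.p14), to describe the DNA letters at a globin gene of each cluster. Their positions belong to another build than the peaks and cannot be set against them. A motif of GATA factors (AGATAA) and a CACCC box (CCACCC), bound by KLF factors, were searched on both strands, and matches are in capitals. These motifs do not overlap in letters.
HBM, GRCh38.p14 chr16:165728-165977, plus strand: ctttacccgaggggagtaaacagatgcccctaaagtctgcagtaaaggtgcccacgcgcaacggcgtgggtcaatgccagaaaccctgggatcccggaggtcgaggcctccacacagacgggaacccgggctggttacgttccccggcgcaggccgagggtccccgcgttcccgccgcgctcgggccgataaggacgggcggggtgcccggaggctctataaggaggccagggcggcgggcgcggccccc
HBD, GRCh38.p14 chr11:5234484-5234733, minus strand: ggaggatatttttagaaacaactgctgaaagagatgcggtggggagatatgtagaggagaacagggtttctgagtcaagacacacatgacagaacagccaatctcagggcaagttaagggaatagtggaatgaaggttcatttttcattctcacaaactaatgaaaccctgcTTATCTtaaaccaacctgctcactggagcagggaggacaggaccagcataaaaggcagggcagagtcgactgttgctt
The HBD promoter held 1 match to the GATA motif, on the opposite strand and beginning 78 bases before the start, and 0 matches to the CACCC box. The HBM promoter held 0 matches to either motif. Over 35116 promoters of the same length, 9.17% held AGATAA and 31.3% held CCACCC. The G and C content was 69.2% at HBM and 45.2% at HBD, on either side of the median of 58% over all promoters. A match describes letters only, and its use in K562 was not tested.

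The alpha-globin window held 3 SRA positions, which differed in how many lists they appeared in. At chr16:221854-222004, a peak of 151 bp was in all 3 SRA lists, with scores of 57.1, 58.4, and 58.4. The score was read as 10 times −log10 of the peak's p-value. These were the highest SRA scores in either cluster. Equal scores in different lists, as here in SRA lists 2 and 3, were found at 544 of the 1859 positions in all 3 lists (29.3%), so list support cannot be read as a count of independent detections. At chr16:174129-174291, a peak of 163 bp was in SRA lists 2 and 3, with scores of 45.1 and 41.7. At chr16:129388-129615, a peak of 228 bp was in SRA list 2 alone, with a score of 46.0. Among these 3 positions, support went from 1 list at the lowest coordinate to all 3 lists at the highest coordinate. The next SRA position below the window, chr16:86205-86337, was also in all 3 lists, so this order is not read as a trend. The 3 positions in the window were spread over 92.6 kb, with 44.5 and 47.6 kb between neighbours.

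LacZ probes gave 2 peaks in the alpha-globin window, 1 in each of 2 lists. LacZ list 2 had a peak of 172 bp at chr16:130913-131084 with a score of 50.8, and LacZ list 1 a peak of 139 bp at chr16:148926-149064 with a score of 44. LacZ list 3 had 0 peaks there. The single-list SRA position lay 1298 bp from the LacZ list 2 peak and had the lower score of the pair. The SRA positions in 2 and in 3 lists lay 25.1 and 72.8 kb from the nearest LacZ peak. No SRA position in the window overlapped a LacZ peak, and the position in all 3 SRA lists was the farthest from one. How often SRA positions of the genome overlap a LacZ peak is not given here. The lack of overlap is therefore not read as particular to the window.

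The beta-globin window held 2 SRA positions, and neither was in all 3 lists. At chr11:5310823-5311136, a peak of 314 bp was in SRA list 1 with a score of 40.1 and in SRA list 3 with a score of 48.2. At chr11:5356354-5356501, a peak of 148 bp was in SRA list 1 alone, with a score of 40.5. SRA list 2, which had the most peaks in the alpha-globin window, had 0 in the beta-globin window. Both positions lay above the window's centre, with 45.2 kb between them.

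LacZ probes gave 2 peaks in the beta-globin window as well. LacZ list 1 had a peak of 261 bp at chr11:5295339-5295599 with a score of 56.1, and LacZ list 2 a peak of 105 bp at chr11:5223744-5223848 with a score of 40.3. The highest score in the beta-globin window therefore belonged to a control peak, above the 48.2 of the highest SRA peak. The SRA position in 2 lists lay 15.2 kb from the LacZ list 1 peak. For the single-list SRA position the nearest LacZ peak was 18.9 kb away and outside the window. As in the alpha-globin window, 0 SRA positions overlapped a LacZ peak, which is likewise not read as particular to the window.

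**Figure D1:**
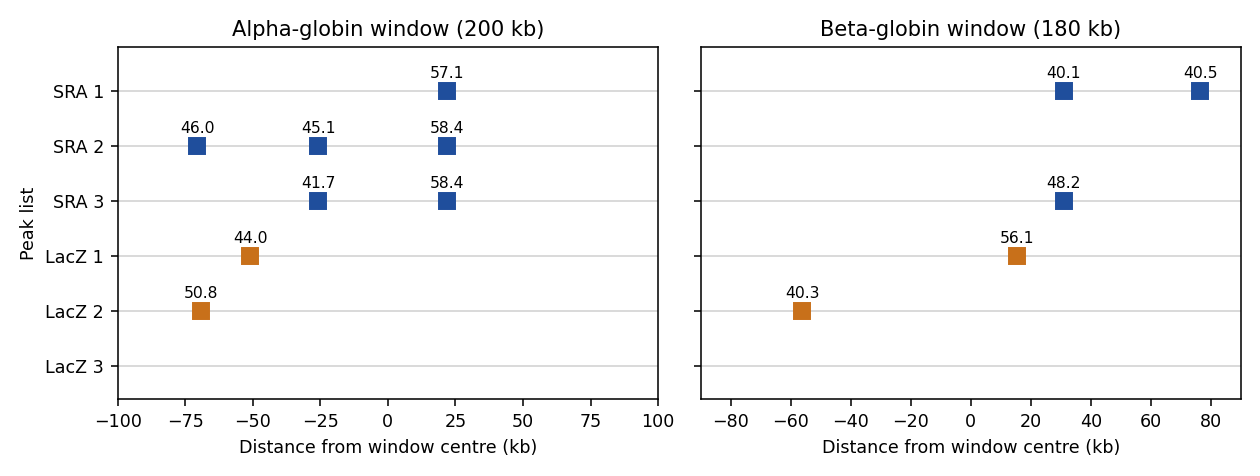
Peaks of the 3 SRA lists (blue) and 3 LacZ lists (orange) along the alpha-globin window (200 kb) and the beta-globin window (180 kb), by distance from the window's centre in kb. Each square is a peak, drawn larger than its width, with its score above it, and only 1 alpha-globin position is in all 3 SRA lists.

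Within their own lists, the SRA peaks in the windows took ranks from near the top to near the bottom. The peak in all 3 lists ranked 343 of 4982 in SRA list 1, 295 of 4946 in SRA list 2, and 316 of 5187 in SRA list 3. At most 6.88% of the peaks of a list had a score as high. The alpha-globin peak in 2 lists ranked 2082 in SRA list 2 and 3936 in SRA list 3, and the single-list peak ranked 1796 in SRA list 2. Of the 6 alpha-globin entries in the SRA lists, 5 were at or above the median score of their list, which was 43.8, 43.9, and 44.3 in SRA lists 1, 2, and 3. These 5 entries include the peak in all 3 lists once per list.

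In the beta-globin window, 1 of 3 SRA entries was at or above its list's median score. The peak in 2 lists ranked 4948 of 4982 in SRA list 1, where 99.3% of peaks scored as high, but 1315 of 5187 in SRA list 3, where 25.4% did. The same interval was thus near the bottom of one list and in the upper part of the other. The single-list peak ranked 4616 in SRA list 1, with 92.7% of peaks as high. By position, 3 of 3 in the alpha-globin window and 1 of 2 in the beta-globin window reached the median score in at least 1 list. Over the genome, 4438 of 8658 SRA positions (51.3%) did, with 30.2% of those in 1 list, 61.3% in 2, and 82.5% in all 3. The difference between the clusters was not tested.

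Among the LacZ entries, the beta-globin peak of list 1 ranked 223 of 2676 and the beta-globin peak of list 2 ranked 2505 of 2617. The alpha-globin peak of LacZ list 2 ranked 429, and that of list 1 ranked 1360. The LacZ entries thus covered a range of ranks as well, with the beta-globin window holding both the highest and the lowest of them.

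**Figure D2:**
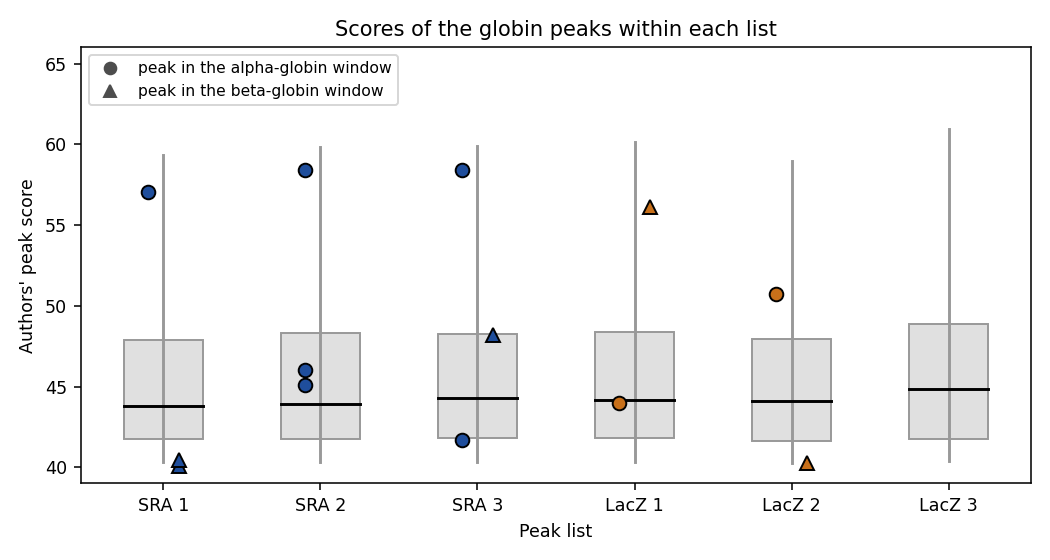
Score of each globin peak (circles, alpha-globin window; triangles, beta-globin window) over the score distribution of its list, for 3 SRA lists (blue) and 3 LacZ lists (orange). Boxes run from the lower to the upper quartile with the median as a line, and thin lines cover the central 90% of peaks; the alpha-globin peak in all 3 SRA lists is above the upper quartile in each.

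Because score rises with list support, each position was also set beside positions of equal support. Genome-wide, 1859 positions (21.5%) were in all 3 SRA lists, 2739 (31.6%) in 2, and 4060 (46.9%) in 1, with median mean scores of 46.9, 44.0, and 42.3. The alpha-globin position in all 3 lists had a mean score of 58.0, and 11.3% of positions in all 3 lists had a mean as high. The alpha- and beta-globin positions in 2 lists had means of 43.4 and 44.1, with 56.6% and 48.3% of their class as high, so both were near the middle. Of the single-list positions, 17.7% scored as high as the alpha-globin one and 88.1% as high as the beta-globin one. By width, the beta-globin position in 2 lists was the unusual one, since 5.83% of all SRA positions were as wide as its 314 bp.

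To read the number of positions, the genome was divided into windows as long as each globin window. The alpha-globin window held 2 SRA positions in at least 2 lists. Of 15151 windows of that length, 3178 (21.0%) held at least 1 such position, and 924 (6.1%) held at least 2. A position in all 3 lists was found in 1568 windows (10.3%), and at least 3 positions of any support, as in the alpha-globin window, in 945 (6.24%). At least 2 LacZ peaks, the number in the alpha-globin window, were found in 1143 (7.54%). The alpha-globin window was thus among the fuller windows of the genome for SRA and for LacZ alike.

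The beta-globin window held 1 SRA position in at least 2 lists, and 3262 of 16835 windows of its length (19.4%) held at least 1. At least 2 positions of any support were found in 1944 windows (11.5%), and at least 2 LacZ peaks in 1094 (6.5%). For the beta-globin window, the number of control peaks was therefore the least common of these counts. LacZ positions were also fewer over the genome, with a mean of 0.325 per window of this length against 0.510 SRA positions of any support. The lower share is therefore not read as particular to the beta-globin window.

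Windows with as many SRA positions as the alpha-globin window were more common on its chromosome than over the genome. On chromosome 16, 58 of 451 windows (12.9%) held at least 2 SRA positions in at least 2 lists, compared with 6.1% over the genome. Such positions had a density of 2.60 per Mb on chromosome 16 and 1.51 per Mb over the genome, against 10 per Mb in the alpha-globin window. On chromosome 11 the density was 1.85 per Mb, and 178 of 748 windows (23.8%) held at least 1, against 5.56 per Mb in the beta-globin window. With positions of any list counted, SRA had 15 per Mb in the alpha-globin window, 4.60 per Mb on chromosome 16, and 2.84 per Mb over the genome, and LacZ had 10, 2.36, and 1.81 per Mb. On the same scale, SRA and LacZ both had 11.1 per Mb in the beta-globin window, against 3.37 and 2.07 per Mb on chromosome 11. A density in a single window rests on 1 to 3 positions.

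The surroundings of the clusters were described by the same densities. Within 1 Mb of the alpha-globin window's centre, 28 SRA positions were found, of which 20 were in at least 2 lists, beside 7 LacZ positions. The covered 1.2 Mb thus held 23.3 SRA positions of any list and 5.83 LacZ positions per Mb, and both were above the genome's 2.84 and 1.81 per Mb. SRA positions were denser in this stretch, which includes the alpha-globin window, than in the window itself. The densities were 23.3 against 15 per Mb for any list and 16.7 against 10 per Mb for at least 2 lists. Of the 28 SRA positions, 25 lay above the centre, and the chromosome's end is 0.2 Mb below it. Within 1 Mb of the beta-globin window's centre, 5 SRA positions were found, of which 1 was in at least 2 lists, beside 8 LacZ positions. The 2.5 SRA positions of any list per Mb were near the genome's density, the 0.50 per Mb in at least 2 lists were below the genome's 1.51, and the 4 LacZ positions per Mb were above the genome's 1.81. The only supported SRA position in this stretch of chromosome 11 was the one inside the beta-globin window.

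The SRA positions nearest to the windows on the outside differed in list support. Below the alpha-globin window, the next SRA position was chr16:86205-86337, in all 3 lists with scores of 48.6 to 55.7 and 13.7 kb outside. Above it, the next was chr16:395070-395181, also in all 3 lists, with scores of 40.5 to 52.3 and 95.1 kb outside. The nearest LacZ peak above was chr16:310693-310829 in LacZ list 2, with a score of 40.2, and none lay below. Both flanks of the alpha-globin window were therefore bounded by SRA positions that every SRA list contained.

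At the beta-globin window, the next SRA positions were each in a single list. The one below, chr11:4199205-4199372 in SRA list 1, was 990.6 kb outside with a score of 46.4. The one above, chr11:5554968-5555135 in SRA list 2, was 185.0 kb outside with a score of 40.4. Below the lowest SRA position of the window, 1.11 Mb of chromosome 11 were free of SRA peaks. LacZ peaks were closer, at chr11:5188887-5189099 (LacZ list 1, 0.901 kb below the window, score 60.6) and at chr11:5375381-5375542 (LacZ list 2, 5.38 kb above, score 42.1). The LacZ peak just below the window had a higher score than any peak inside it.

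The comparison of probe sets asked whether SRA lists held more globin peaks than LacZ lists. SRA lists 1, 2, and 3 held 1, 3, and 2 peaks in the alpha-globin window and 2, 0, and 1 in the beta-globin window, which is 3 in each list. LacZ lists 1, 2, and 3 held 1, 1, and 0 in the alpha-globin window and 1, 1, and 0 in the beta-globin window, which is 2, 2, and 0 in all. The lists of the probe sets did not overlap in number in these windows. They did with the windows widened by 100 kb, where LacZ list 2 held 6 peaks and each SRA list 5, and with scores at or above each list's median, where SRA list 1 and LacZ lists 1 and 2 held 1 each. The mean was 3 for SRA and 1.33 ± 1.15 (SD, n = 3) for LacZ, a difference of 1.67 (two-sided exact permutation test over 3 lists against 3, p = 0.1, the smallest p this design allows). With the SRA lists counted as 1 sample, the exact permutation test gave p = 0.5, where 1 sample against 3 cannot give less than 0.25. Leaving out LacZ list 3 took the difference from 1.67 to 1. The ChIRP samples are described in the study's methods as biological triplicates, but overlapping SRA peaks share their limits across lists, so the test over single lists takes the SRA lists as more independent than they appear.

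The lists also differed in length, and per list length the order was not the same. As a share of all peaks, the globin windows held 0.0602% of SRA list 1 (exact 95% binomial interval 0.0124 to 0.176%), 0.0607% of SRA list 2 (0.0125 to 0.177%), and 0.0578% of SRA list 3 (0.0119 to 0.169%). The shares were 0.0747% in LacZ list 1 (0.00905 to 0.270%) and 0.0764% in LacZ list 2 (0.00926 to 0.276%). LacZ list 3 held 0 of 290, which allows a share of up to 1.03% by 3 counts and 1.26% by the exact interval. All of these intervals overlap, and they cover counting error only. Per 1000 peaks, SRA lists had 0.596 and LacZ lists 0.504 ± 0.436 (SD, n = 3), a difference of 0.0918 (two-sided exact permutation test, p = 1, also with the SRA lists counted as 1 sample). Without LacZ list 3, an alternative chosen after seeing the data, the difference per 1000 peaks turned to −0.160, with both remaining LacZ lists above all SRA lists. LacZ list 3 stood apart in its peaks, with a median width of 1113.5 bp against 155 bp in LacZ lists 1 and 2. With each list limited to its 290 highest peaks, also chosen after seeing the data, 0 SRA entries and 1 LacZ entry were in the windows, but 290 peaks are a smaller part of the SRA lists than of the LacZ lists. The alpha-globin peak in all 3 SRA lists fell just below this cut, at ranks 343, 295, and 316 in SRA lists 1, 2, and 3. None of these tests could reach a p below 0.1. A higher share of peaks in the globin windows with SRA probes than with LacZ probes was not detectable with these lists.

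**Figure D3:**
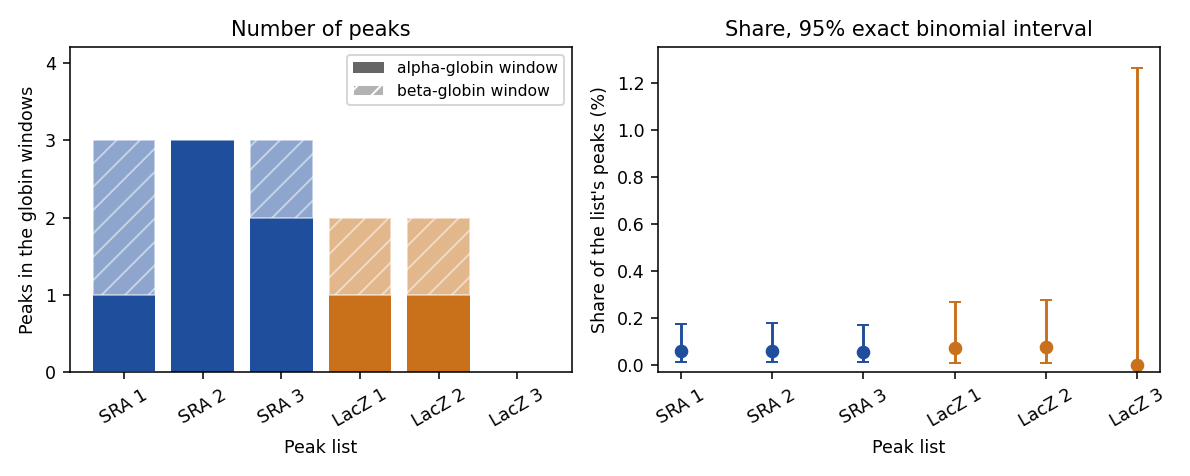
Left, number of peaks in the alpha-globin (solid) and beta-globin (hatched) windows in each SRA list (blue) and LacZ list (orange). Right, the share of each list's peaks that lie in both windows, in percent, with exact 95% binomial intervals; each SRA list held 3 peaks, while the shares in LacZ lists 1 and 2 are above those in the SRA lists and the intervals overlap.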

How the data were processed

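Peaks of 3 SRA ChIRP and 3 LacZ ChIRP samples of K562 cells were used. Reads of 50 bp were aligned to hg19 by the authors, and the submitters' processing notes name CASAVA 1.8.2, MACS, and deepTools. The MACS version, the control of each list, and the treatment of reads with several matches are not given in the sources used here. The score of each peak was deposited by the authors under a heading of −log10 of the p-value. Its lowest value is 40 in every list after rounding, and it was read from this minimum as 10 times −log10, for which 40 is a p-value of 0.0001. It was used for ranks, thresholds, and means over lists, and was set side by side between lists, whose read depths are unknown.

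A peak belonged to a window when it shared at least 1 bp with it. Peaks of different lists of the same probe set sharing at least 1 bp were 1 position, and support is the number of lists. For the background, chromosomes 1 to 22 and X were divided from the first base to the last peak, assembly gaps included, and positions were counted by their centre. Lists were grouped by probe set and compared by an exact permutation test. The alternatives were list support, removal of SRA peaks overlapping LacZ peaks, gaps of up to 500 bp joined, score, list length, window limits, a shifted tiling, scale, the replicate block, and each list left out in turn. The counting was tested on simulated lists.

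All globin genes and all peaks in or next to the windows were named. Members and lists were chosen with earlier results of these data known. Gene order and promoters came from RefSeq (GRCh38.p14), and its coordinates were not set against the peaks. Peak sequences, ChIRP-PCR, and expression after SRA knockdown were not analysed here. Identity between promoters or proteins of the near-identical genes was not analysed here. Computations were run in Python 3.11.15 with scipy 1.17.1, numpy 2.4.6, and pandas 2.3.3, and plots were drawn with matplotlib 3.10.9.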

Additional observations from a re-analysis of the deposited data

How the results depend on the processing

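The 3 alpha-globin positions became 1 with all 3 lists required, 5 with the window widened by 100 kb, and 0 with each list cut to the length of the shortest, which keeps a smaller part of the SRA lists than of the LacZ lists. The 2 beta-globin positions became 1 with at least 2 lists required, with scores at or above the median, or with the window narrowed by 25 kb, 0 with all 3 lists required or with lists of equal length, and 1 to 2 on omitting a single SRA list (1 without list 1). The share of windows of alpha-globin length, 21.0%, was 30.8% with any list, 10.3% with all 3 lists, and 14.3 to 14.4% on omitting an SRA list and requiring both others. These counts changed because the alternatives keep fewer or more peaks by construction. Removing SRA peaks that overlap LacZ peaks and joining gaps of up to 500 bp could not change either count, since no SRA position overlapped a LacZ peak and neighbours lay at least 44.5 kb apart. The difference of 1.67 peaks per list between SRA and LacZ kept its direction in 12 alternatives and reversed in 5. It was 1 to 2 when a list was left out (1 without LacZ list 3). Each SRA list held 3 peaks and no LacZ list more than 2. Leaving out a list, the replicate block, and counting the SRA lists as 1 sample therefore could not change the direction of this count. None of these exact permutation tests could fall below p = 0.1. The difference turned to −0.160 per 1000 peaks without LacZ list 3 (exact permutation p = 0.1, or 0.333 with the SRA lists counted as 1 sample, the smallest that each design allows). In windows widened by 100 kb it was −0.145 per 1000 peaks (exact permutation p = 0.7, or 0.75 with the SRA lists as 1 sample). With lists of equal length it was −0.333 peaks per list (0 SRA against 1 LacZ entry, exact permutation p = 1). At that length of 290 peaks, the alpha-globin peak in all 3 SRA lists fell just below the cut, at ranks of 295 to 343. These alternatives, and the SRA lists as 1 sample on the scale per 1000 peaks, were chosen after seeing the data, and the cause was not tested. With a replicate block the difference was 1.67 (exact permutation p = 0.25, the smallest that 3 pairs allow). Lists of the same number correlated at −0.0268 to 0.0469 over bins of 1 Mb, and lists of different number at −0.0721 to 0.0593. The number was therefore not taken as a pairing. These correlations served that question only. They were not read as a measure of how alike SRA and LacZ peaks lie along the genome. Counts of 0 to 3 peaks per list, or 0 to 6 in the widened windows, limit every comparison, and read depth is unknown.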
